A study of Homo sapiens with 4 samples.

Results

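The genes of the autophagy machinery were followed in CP70sps cells, sphere-forming cells of the Cp70 ovarian cancer line, over 0, 2, 4 and 6 h of niclosamide. Members were chosen by gene symbol in the annotation of the array: every ATG gene with a number, the MAP1LC3, GABARAP and WIPI families, and 16 further named genes of the pathway. This gave 43 genes of 18665 symbols, read by 62 probes of 27578 with 1 symbol. A probe of 38 of these genes was detected on at least 1 array, and 36 genes were detected on all 4.

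Autophagy encloses a portion of cytoplasm in a double membrane and delivers it to the lysosome for breakdown. A protein kinase complex starts the process, a phosphatidylinositol 3-kinase complex marks the growing membrane, and ubiquitin-like reactions then attach proteins of the ATG8 family (LC3 and GABARAP) to it, where cargo receptors bind them. In tumour cells the pathway is known for recycling nutrients and damaged mitochondria under stress, and niclosamide is known as an anthelmintic that uncouples mitochondrial respiration.

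The cells had been selected by exclusion of the dye Hoechst and grown in low-attachment plates without serum, with insulin, bFGF and EGF. Each of the 4 time points was read by 1 Illumina bead array, with niclosamide at 3 µM for the cells taken at 2, 4 and 6 h. The 0 h array is the untreated reference, and all cells carry the same selection and culture. The series is a single selected line with no replicate and no culture kept for 6 h without the drug, so exposure, time in culture and the individual array cannot be told apart. The labels and file headers give no slide, scan or extraction batch.

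Between 13797 and 14461 of 48803 probes were detected on an array, at a detection p under 0.01. Of the 8 epithelial and ovarian carcinoma markers examined, EPCAM, KRT18 and KRT19 were detected on all 4 arrays and KRT8 on 1, whereas CDH1, PAX8, MUC16 and WT1 were not detected. Endothelial markers were detected in 0 of 3 genes and leukocyte markers in 1 of 4, the lysosomal gene CD68, abundant in macrophages. Of 4 fibroblast markers, the collagen gene COL1A2 and the proteoglycan gene DCN were detected on all 4 arrays, whereas COL1A1 and PDGFRB were not. The summed intensity of that list lay between 4374 and 5704 units over the arrays, and COL1A2, with up to 4805, made up most of it. The sum of the epithelial and ovarian carcinoma list lay between 5524 and 6595 units. The part of other cells in the values below was not tested, and in bulk RNA fewer cells of a type and less RNA per cell cannot be told apart.

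Promoter sequences of the RefSeq annotation (GRCh38.p14) were available for 38 of the 43 members, in 48 windows of 300 bases, each running from 250 bases before a listed start to 50 bases into the transcript. ATG4D, MAP1LC3A, RB1CC1, TP53INP1 and UVRAG had none. The windows of WDR81, ATG3 and GABARAPL1 are shown as examples that hold a motif searched, and WDR81 was the member with the highest difference at 6 h. GABARAPL1 holds only TGACGTCA, a motif added after the sequences had been seen. Windows of other members that hold a motif, such as ATG14, ULK3, TP53INP2 and MAP1LC3C, are not shown. Capitals mark the matches.
WDR81, upstream start, chr17:1716273-1716572, plus strand: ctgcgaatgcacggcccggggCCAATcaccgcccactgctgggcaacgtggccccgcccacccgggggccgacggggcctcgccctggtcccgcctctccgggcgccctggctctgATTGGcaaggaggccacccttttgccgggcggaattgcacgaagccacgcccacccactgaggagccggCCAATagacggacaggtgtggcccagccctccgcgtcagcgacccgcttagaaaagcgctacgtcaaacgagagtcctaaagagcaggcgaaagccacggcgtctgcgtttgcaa
WDR81, downstream start, chr17:1724454-1724753, plus strand: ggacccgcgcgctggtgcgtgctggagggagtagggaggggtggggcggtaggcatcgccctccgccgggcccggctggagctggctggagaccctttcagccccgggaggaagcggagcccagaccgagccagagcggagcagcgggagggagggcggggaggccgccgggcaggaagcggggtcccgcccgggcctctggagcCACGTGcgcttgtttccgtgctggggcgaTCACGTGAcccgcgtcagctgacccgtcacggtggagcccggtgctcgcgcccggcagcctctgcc
ATG3, chr3:112561913-112562212, minus strand: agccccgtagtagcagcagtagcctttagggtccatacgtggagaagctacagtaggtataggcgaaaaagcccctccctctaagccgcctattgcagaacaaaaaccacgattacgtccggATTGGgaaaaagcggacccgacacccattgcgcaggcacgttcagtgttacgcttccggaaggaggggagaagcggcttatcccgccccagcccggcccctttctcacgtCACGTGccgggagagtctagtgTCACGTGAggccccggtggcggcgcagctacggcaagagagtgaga
GABARAPL1, chr12:10212627-10212926, plus strand: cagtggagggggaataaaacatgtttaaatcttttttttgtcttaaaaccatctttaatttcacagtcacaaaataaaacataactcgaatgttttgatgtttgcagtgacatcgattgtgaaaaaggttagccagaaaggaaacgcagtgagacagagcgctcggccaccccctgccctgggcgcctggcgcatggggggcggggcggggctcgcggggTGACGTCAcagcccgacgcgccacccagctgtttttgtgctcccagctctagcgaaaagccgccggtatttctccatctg

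In the downstream WDR81 window the E-box CACGTG begins 45 and 15 bases before the start, with the base next to the start counted as 1. The copy nearer the start is part of TCACGTGA, the core of the CLEAR element that the lysosomal transcription factor TFEB is known to bind. The ATG3 window holds CACGTG 18 bases before the start and again inside TCACGTGA, which begins at base 5 of the transcript. On both strands, TCACGTGA was found in 0.98% of 35116 windows of all genes and in 2 of the 48 member windows. CACGTG was found in 7.26% of all windows and in 4 member windows, those of WDR81, ATG3, ATG14 and ULK3. TGATGNAA, a site of ATF4 with a C/EBP partner, was found in 3.62% of all windows and in 1 member window, that of MAP1LC3C. The search for the cyclic AMP response element TGACGTCA and for CCAAT was added after the sequences had been seen. GABARAPL1 and TP53INP2 hold TGACGTCA, which 1.85% of all windows hold. The upstream WDR81 window and the ATG9A window each hold 3 copies of CCAAT, and 3.26% of all windows hold at least 3. At least 1 copy stands in 33.3% of the member windows and in 34.6% of all windows. A match is a description of these letters, and the arrays do not show which WDR81 start was used.

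After 6 h, WDR81 and UVRAG had the largest increases over 0 h among the members, at 2.76-fold and 2.26-fold, and VMP1 had the lowest difference, 1.51 times below it. Of the 36 members detected at both times, 7 lay at least 1.5-fold higher (19.4%) and 1 was at least 1.5-fold lower (2.78%). Over the 9044 genes that both arrays detected, the same shares were 9.44% higher and 9.8% lower. The other members past 1.5-fold were ATG101, ATG4D, WIPI1, GABARAPL1 and TP53INP1, each with a log2 difference between 0.59 and 0.72. The median log2 difference was 0.17 over the members and -0.02 over all genes. When each array was scaled to 1 median in place of quantile normalization, 10 members were at least 1.5-fold higher and 0 lower, and the split of all genes went from 854 higher and 886 lower to 1269 and 593. Since a time point is a single array, none of these folds has an error or a p-value, and their precision is limited by the number of arrays.

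**Figure D1:**
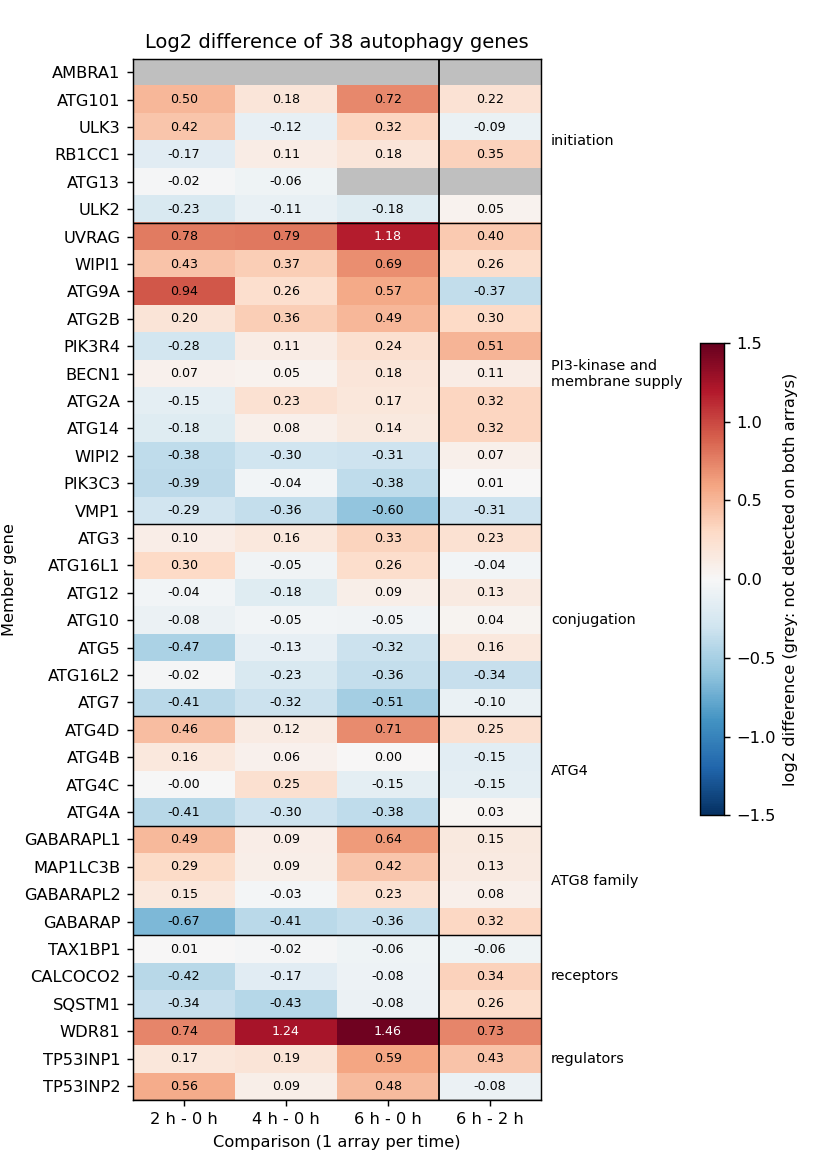
Log2 difference of the brightest detected probe of the 38 measured member genes (rows, grouped by role) in 4 comparisons of single arrays (columns), with red for higher and blue for lower at the later time and grey where the gene was not detected on both arrays. WDR81 reads 0.74, 1.24 and 1.46 against 0 h and 0.73 for 6 h minus 2 h, while the conjugation genes lie between -0.51 and 0.33 at 6 h.

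WDR81 encodes a WD-repeat protein that restrains phosphatidylinositol 3-kinase on endosomes and is reported to help clear aggregates marked by SQSTM1. Its single probe, ILMN_1805863, gave deposited intensities of 177, 276, 397 and 449 units at 0, 2, 4 and 6 h. The normalized log2 signals were 7.17, 7.90, 8.40 and 8.63, so each later array read higher than the one before it. The log2 difference for 6 h minus 2 h, which leaves the 0 h array out, was 0.73.

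UVRAG, whose protein joins BECN1 in the phosphatidylinositol 3-kinase complex of late endosomes and autophagosomes, was read by probe ILMN_1761069 at 272, 454, 495 and 614 intensity units. The log2 signals of 7.95, 8.73, 8.74 and 9.12 show a step by 2 h, nearly the same level at 4 h, and a further step at 6 h. For 6 h minus 2 h the log2 difference was 0.40. A UVRAG probe designed from another sequence was not detected on any array.

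**Figure D2:**
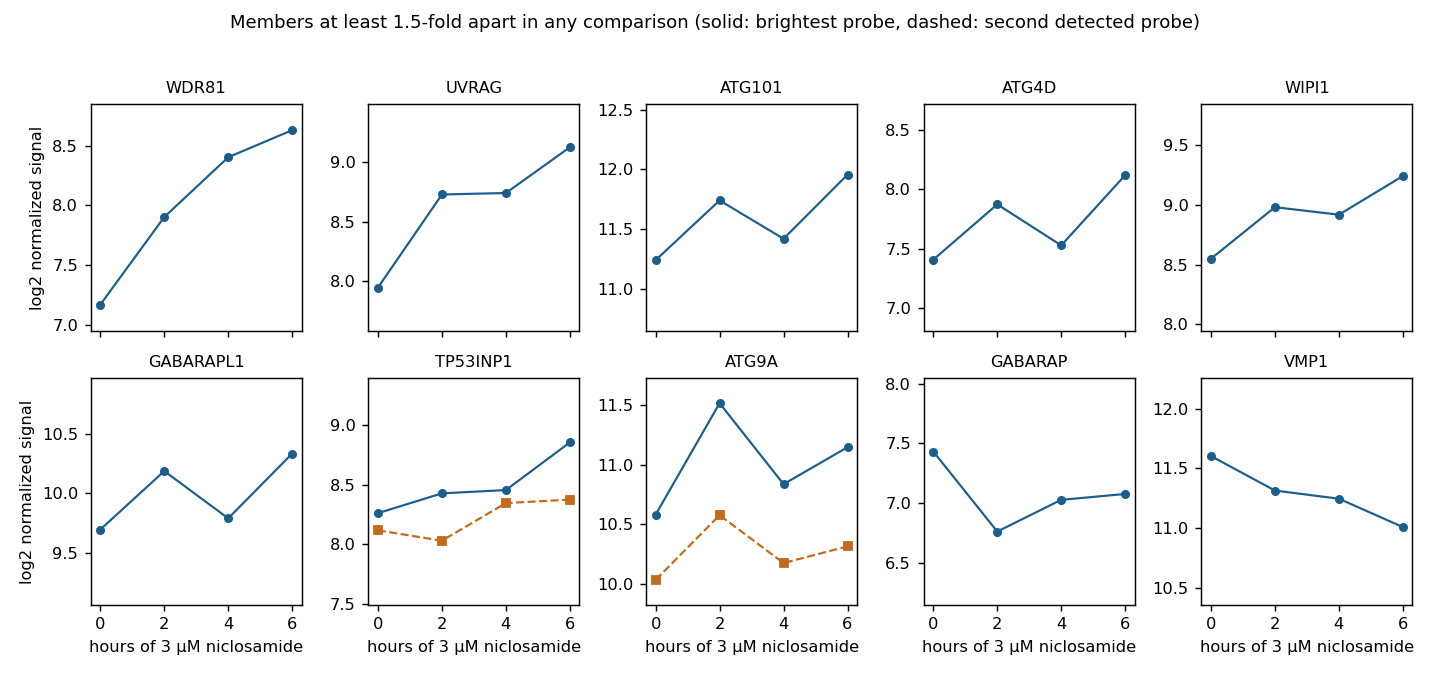
Log2 normalized signal (vertical axis, 1.9 log2 units high in every panel) against hours of 3 µM niclosamide for the 10 members at least 1.5-fold apart in any of the 4 comparisons, 1 array per point. WDR81 reads higher on each later array, VMP1 lower on each, and ATG101, ATG4D, GABARAPL1 and ATG9A read lower at 4 h than at 2 h and 6 h.

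The kinase complex that starts autophagy was represented by ULK2, ULK3, RB1CC1, ATG13, ATG101 and AMBRA1. ATG101, which stabilizes ATG13 in the complex, had log2 signals of 11.24, 11.74, 11.42 and 11.96, high at 2 h and 6 h and nearer to 0 h at 4 h. RB1CC1, the scaffold also called FIP200, read 10.44, 10.27, 10.55 and 10.62, with a 6 h minus 0 h difference of 0.18. The kinase gene ULK3 read 6.96, 7.37, 6.84 and 7.28 and its relative ULK2 read 7.43, 7.20, 7.32 and 7.25, so neither reached 1.5-fold. ATG13 was near the detection limit at 6.34, 6.32, 6.28 and 6.20 and was not detected at 6 h. AMBRA1, which links the kinase to the BECN1 complex, was detected at 4 h and 6 h only, at 6.55 and 6.31. Against the lowest level detected at 0 h, this is at least 1.22-fold higher for 4 h. The bound for 6 h was at least 1.03-fold higher.

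Among the 11 measured genes of the phosphatidylinositol 3-kinase complex and of membrane supply, 2 were at least 1.5-fold higher at 6 h, UVRAG and WIPI1, and 1 was lower, VMP1. Over all genes 9.44% were higher and 9.8% lower, so these counts among 11 are near the background. WIPI1, which binds the lipid product of the kinase, read 8.55, 8.98, 8.92 and 9.24, above 0 h on every later array. VMP1, a membrane protein of the endoplasmic reticulum that moves lipids during membrane growth, read 11.60, 11.31, 11.25 and 11.01, below 0 h on every later array, and its 6 h value was the lowest. ATG9A, the lipid scramblase of the vesicles that seed the membrane, was 1.91-fold higher at 2 h and 1.48-fold at 6 h, with log2 signals of 10.58, 11.51, 10.84 and 11.14. Its other detected probe read 0.54 at 2 h and 0.28 at 6 h, in the same direction and smaller. BECN1 itself, at 8.95, 9.02, 8.99 and 9.13, stayed within 0.18 log2 units over the 4 arrays. The catalytic subunit gene PIK3C3 and its partner PIK3R4 differed from 0 h by -0.38 and 0.24 at 6 h, ATG14 by 0.14, the lipid transfer genes ATG2A and ATG2B by 0.17 and 0.49, and WIPI2 by -0.31.

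The ubiquitin-like conjugation genes ATG3, ATG5, ATG7, ATG10, ATG12, ATG16L1 and ATG16L2 were all measured, and 0 of these 7 reached 1.5-fold in any of the 4 comparisons. Between 1.34% and 9.8% of all genes did so in each comparison and direction, so a count of 0 among 7 genes is near the background. Their median log2 difference at 6 h was -0.05. ATG7, the activating enzyme of both conjugation reactions, had the lowest 6 h difference at -0.51, with log2 signals of 9.27, 8.86, 8.95 and 8.76. ATG3, the enzyme that transfers ATG8 proteins to lipid, had the highest at 0.33, with 10.29, 10.39, 10.45 and 10.62. ATG5 read 7.97, 7.50, 7.84 and 7.65 and its conjugation partner ATG12 read 11.49, 11.45, 11.31 and 11.59. Of the 4 ATG4 genes, which encode the proteases that trim and release ATG8 proteins, ATG4D was 1.64-fold higher at 6 h, with 7.41, 7.87, 7.53 and 8.12, and a second ATG4D probe was not detected. ATG4A, ATG4B and ATG4C differed from 0 h by -0.38, 0.00 and -0.15 at 6 h.

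Of the 7 ATG8 family genes on the array, 4 were measured, and their 6 h minus 0 h differences were 0.64 for GABARAPL1, 0.42 for MAP1LC3B, 0.23 for GABARAPL2 and -0.36 for GABARAP. GABARAPL1 read 9.69, 10.18, 9.79 and 10.33, with 2 h and 6 h above 0 h and 4 h. MAP1LC3B, the gene of the widely used autophagosome marker LC3B, followed the same order at 11.46, 11.74, 11.55 and 11.87 and did not reach 1.5-fold. GABARAP read 7.43, 6.76, 7.03 and 7.08 and was the single member at least 1.5-fold lower at 2 h, at 1.59 times. This log2 difference fell short of 1.5-fold, at -0.55 with median scaling, -0.51 in the authors' values and -0.54 with an offset of 50. For 6 h minus 2 h all 4 had differences above 0, from 0.08 to 0.32. In that comparison 72.2% of the 36 members and 50.2% of all genes lay above 0. A list of 4 is too short for its share to be read. The probes of MAP1LC3A, MAP1LC3B2 and MAP1LC3C were not detected on any array, so no level is given for them, and MAP1LC3B2 is a near-identical copy of MAP1LC3B whose transcripts could share probes with it.

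The cargo receptor SQSTM1, also called p62, read 12.38, 12.04, 11.95 and 12.30, lower at 2 h and 4 h, with a 6 h minus 0 h difference of -0.08. CALCOCO2, also called NDP52, read 7.83, 7.41, 7.66 and 7.75, lowest at 2 h, whereas SQSTM1 was lowest at 4 h. TAX1BP1 read 12.07, 12.08, 12.05 and 12.01 on its brightest probe and 11.76, 12.09, 11.80 and 11.91 on the other. The 3 probes of NBR1 were not detected, and neither was the probe of ATG9B. TP53INP1 and TP53INP2, whose proteins bind ATG8 proteins, differed from 0 h by 0.59 and 0.48 at 6 h. TP53INP1 read 8.26, 8.43, 8.46 and 8.86 on its brightest probe and 8.12, 8.03, 8.35 and 8.38 on the other, where the 6 h difference was 0.26. TP53INP2 read 8.98, 9.54, 9.07 and 9.46, high at 2 h and 6 h.

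After 2 h, ATG9A, UVRAG and WDR81 were the 3 of 37 members at least 1.5-fold higher (8.11%), and GABARAP the 1 lower (2.70%), against 7.86% and 7.99% of 9120 genes. After 4 h, 2 of 37 members were at least 1.5-fold higher (5.41%), WDR81 at 2.36-fold and UVRAG at 1.73-fold, and 0 were lower, against 4.25% and 4.58% of 9217 genes. These shares are close to those of all genes, except for the lower side, where the members' counts are 1 and 0. The member medians were -0.0031 at 2 h and 0.05 at 4 h, beside -0.02 and 0.0083 for all genes. Median scaling gave 4 members higher and 0 lower at 2 h, with all genes at 979 and 551 instead of 717 and 729. At 4 h it left the members at 2 and 0, but moved all genes from 392 and 422 to 947 and 197 and their median to 0.15, and the member median then lay 0.0061 above that of all genes. The 3 comparisons with 0 h share that array, so their values are not independent.

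**Figure D3:**
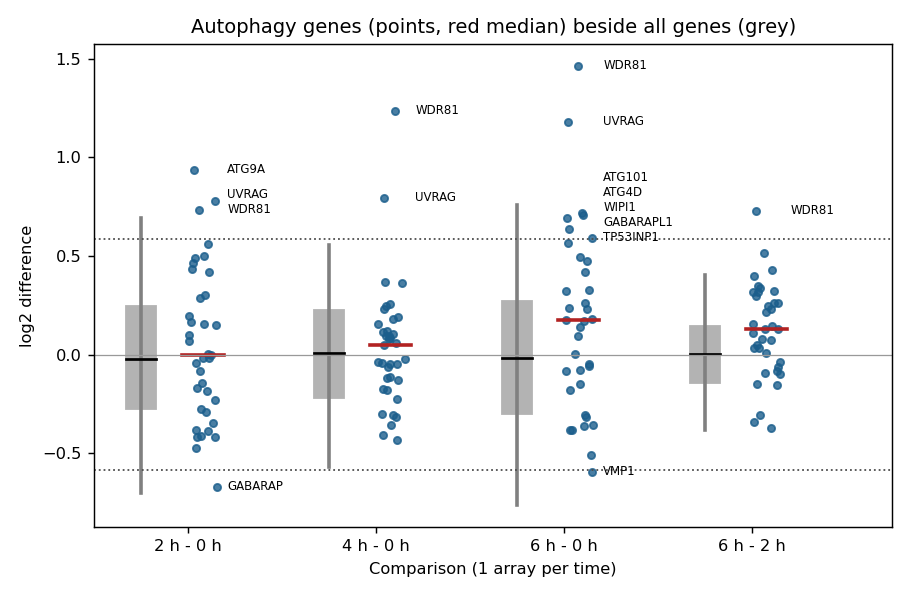
Log2 differences of the member genes (blue points, red line for their median) beside all genes detected on both arrays (grey box from the 25th to the 75th percentile, black line for the median, whisker from the 5th to the 95th), with dotted lines at 1.5-fold. WDR81 lies above the upper dotted line in all 4 comparisons, and the member median is furthest from that of all genes at 6 h, 0.17 beside -0.02.

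The 6 h array was also set against the 2 h array, which leaves the untreated array out. Of 36 members, 1 was at least 1.5-fold higher, WDR81 at 1.66-fold, and 0 were lower, against 1.52% and 1.34% of 9202 genes. The next highest values were 0.51 for PIK3R4, 0.43 for TP53INP1 and 0.40 for UVRAG, and the lowest were -0.37 for ATG9A, -0.34 for ATG16L2 and -0.31 for VMP1. Differences were above 0 in 26 of the 36 members (72.2%) and in 50.2% of all genes, and the medians were 0.13 and 0.0011.

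The order of the 4 arrays was compared next. In 19 of the 36 members detected throughout (52.8%), the 2 h and 6 h values lay on the same side of 0 h and the 4 h value did not reach as far, and 47.7% of all 9001 such genes had this order. ATG101, ATG4D, GABARAPL1, MAP1LC3B, WIPI1, ATG9A and TP53INP2 were among the 11 members with it in the upward direction. In 7 members (19.4%) every later array lay further from 0 h than the one before, namely WDR81, UVRAG, TP53INP1, ATG2B and ATG3 upward and VMP1 and ATG16L2 downward, and 12.4% of all genes had this order.

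A linear trend over hours was tested across all 9771 measured genes with limma, from 4 arrays and 2 residual degrees of freedom. Of the 38 members, 0 passed a Benjamini-Hochberg adjusted p under 0.05, a threshold that 0.0307% of all genes passed. WDR81 came closest, with a slope of 0.24 per hour on the log2 scale (SE 0.0444) and a limma adjusted p of 0.114. UVRAG followed with 0.18 per hour (SE 0.0455) and a limma adjusted p of 0.197. With median scaling the adjusted p of WDR81 was 0.0329, and over the alternatives fitted to 4 arrays it ranged from 0.0329 to 0.171. At an unadjusted limma p under 0.05 there were 6 members, WDR81, UVRAG, WIPI1, AMBRA1 and ATG101 with slopes above 0 and VMP1 with one below 0, which is 15.8% of the 38 beside 14.3% of all genes. AMBRA1 was not detected at 0 h and 2 h, so its slope rests on signals below detection there. Over genes detected on all 4 arrays, 5 of 36 members (13.9%) and 13.9% of 9001 genes had an unadjusted limma p under 0.05. Departures from a line count as error in this test, so a gene that is high at 2 h and 6 h and low at 4 h adds to its own error.

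Several probes of the same gene gave a check within each array for 7 members, ATG9A, ATG10, ATG12, ATG16L1, GABARAPL2, TAX1BP1 and TP53INP1. Both probes had the same sign in 3 of these 7 genes at 2 h, in 5 at 4 h, in 4 at 6 h and in 4 for 6 h minus 2 h. ATG9A was the 1 gene in which both probes shared a sign in all 4 comparisons. The GABARAPL2 probes read 0.15 and -0.39 at 2 h, and the ATG10 probes -0.08 and 0.38. The remaining 31 measured members had 1 detected probe, among them WDR81, UVRAG, ATG101, ATG4D, WIPI1, GABARAPL1, GABARAP and VMP1, so no other probe checks these values.

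**Figure D4:**
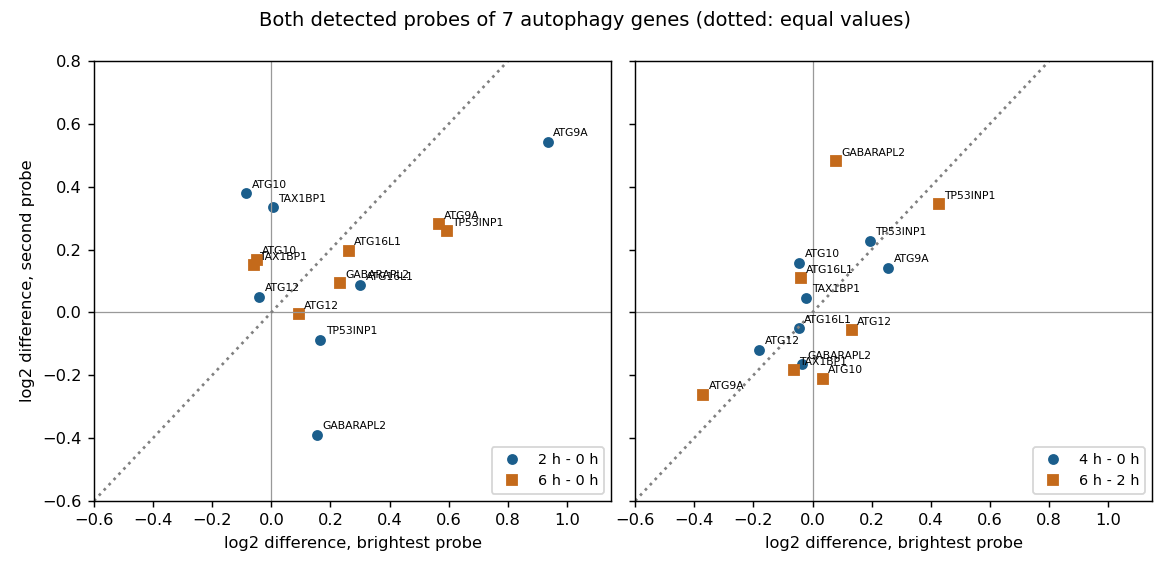
Log2 differences of the brightest probe (horizontal axis) and of the other detected probe (vertical axis) of the 7 members with 2 detected probes, for 2 h and 6 h against 0 h (left) and for 4 h against 0 h and 6 h against 2 h (right), 1 array per time. Points in the upper left and lower right of a panel are genes whose probes disagree in sign, such as ATG10, and ATG9A lies in the upper right for each comparison with 0 h.

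Members reported in mouse fibroblasts to need the stress factors ATF4 or CHOP for their induction numbered 11 measured genes, and 0 of them reached 1.5-fold at 6 h, with a median of 0.09. Of all genes 9.44% were higher and 9.8% lower, so 0 of 11 is near the background. DDIT3, the gene of CHOP, was 4.05-fold higher at 6 h. ATF4 differed from 0 h by -0.08, 0.16 and 0.26 at 2, 4 and 6 h on the brightest of its 3 detected probes. Of 4 measured members reported as targets of TFEB, UVRAG and WIPI1 passed 1.5-fold at 6 h, while MAP1LC3B stood at 0.42 and SQSTM1 at -0.08. Against the 9.44% of all genes, a list of 4 is too short for its share to be read. The TFEB probe was not detected on any array. Its relative TFE3 differed from 0 h by -0.62, 0.08 and -0.41 at 2, 4 and 6 h.

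Outside the members, 74 genes of the same pathway were listed in 5 groups, and 66 were measured. At 6 h, 8 of the 61 genes detected at both times lay at least 1.5-fold higher (13.1%) and 2 lower (3.28%), with a median of 0.09, beside 9.44% and 9.8% of all genes and a median of -0.02. For 6 h minus 2 h, 4 of 63 were higher (6.35%) and 1 lower (1.59%), beside 1.52% and 1.34% of all genes. The list of upstream kinases and their regulators held AKT1S1, which encodes the mTORC1 inhibitor PRAS40. AKT1S1 stood at 0.83 at 2 h, -0.0049 at 4 h and 0.83 at 6 h on 1 probe. ULK1, the main initiating kinase, differed at 6 h by -0.04 on its brightest probe and -0.11 on another. At 2 h these ULK1 probes read -0.45 and -0.36, and for 6 h minus 2 h 0.41 and 0.25. The mTORC1 inhibitor gene TSC1 read 0.03 on its brightest probe and 0.93 on another at 6 h, -0.80 and 0.26 at 2 h, and -0.15 and 0.48 at 4 h. Against 0 h its probes thus disagree in size and, at 2 h and 4 h, in direction. For 6 h minus 2 h the TSC1 probes read 0.83 and 0.67, in the same direction. Among transcription factors, CEBPB stood at 0.75 at 6 h and 0.91 for 6 h minus 2 h.

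NRBF2, a subunit of the BECN1 and ATG14 kinase complex, was the accessory gene with the highest 6 h difference, 0.93, with log2 signals of 9.19, 9.76, 9.73 and 10.12. ZFYVE1, the gene of the omegasome protein DFCP1, stood at 0.56, TBC1D14 at 0.52, and RAB33B at 0.62 for 6 h minus 2 h. Among 13 genes of fusion with the lysosome, 2 passed 1.5-fold upward after 6 h and 2 downward. Of all genes 9.44% were higher and 9.8% lower, so counts of 2 among 13 are near the background. The tethering subunits VPS18 and VPS39 stood at 0.97 and 0.73 at 6 h. VPS16, a subunit of the same tethering complex, read -0.82 on its brightest probe and 0.32 on another, which disagree in direction. VAMP8, which encodes a SNARE of this fusion step and was named after its values were seen, stood at -0.47, -0.51 and -0.65 at 2, 4 and 6 h, the last being 1.57 times lower. Among the other cargo receptors, TOLLIP was 1.88-fold higher at 6 h and 1.47-fold above 2 h, the mitochondrial receptor gene FKBP8 stood at 0.61, and the glycogen receptor gene STBD1 at -0.37 against 0 h and -0.83 against 2 h.

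**Figure D5:**
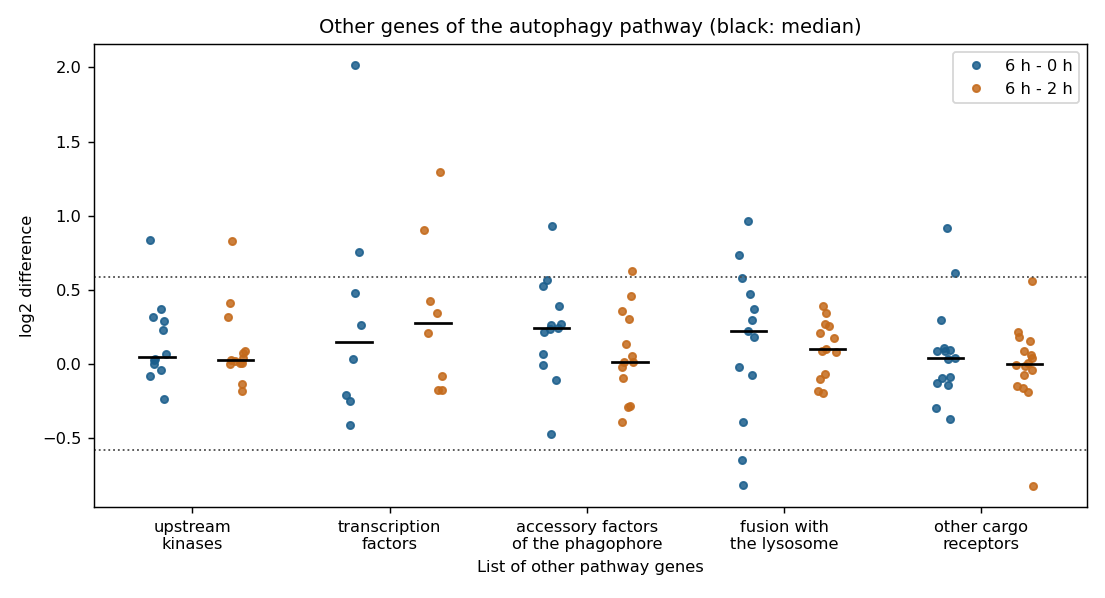
Log2 differences of the other measured pathway genes in 5 lists, for 6 h minus 0 h (blue) and 6 h minus 2 h (orange), with the list median as a black line and dotted lines at 1.5-fold, 1 array per time. List medians at 6 h against 0 h lie between 0.04 and 0.24, and the highest point is DDIT3 at 2.02.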

How the data were processed

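Non-normalized intensity values and detection p-values per probe were deposited for 4 arrays. The submitters' processing notes name BeadStudio and give no version. The processed intensity values of the authors lie within 1.48% of a quantile normalization of these, probe by probe and without log. Probes were named through the platform annotation, with symbols updated by Entrez identifier. No member symbol differed from the RefSeq one.

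The neqc function of limma 3.58.1 (R 4.3.3) was run on the non-normalized values. It corrects background by normexp, infers the negative controls through the detection p-values, adds an offset, here 16, and quantile normalizes on the log2 scale. A gene is represented by its brightest probe detected on at least 1 array, at a detection p under 0.01. Log2 differences between single arrays were counted at 1.5-fold among genes detected on both, with no test. Where 1 array of a pair did not detect a gene, its lowest detected signal served as a bound. The slope over hours was tested with limma (eBayes, variance trend on intensity, two-sided, Benjamini-Hochberg adjustment), a test that was first tried on simulated data. Members, lists and tests were chosen with earlier results of these data known. All measured members were named, with values on every array for those past 1.5-fold and for SQSTM1, MAP1LC3B, GABARAPL1, BECN1 and ULK3. From each pathway list, up to 3 genes were named for 6 h minus 0 h and up to 2 for 6 h minus 2 h. TFE3, ATF4 and VAMP8 were named outside this rule. Alternatives were median scaling, the authors' values, an offset of 50, a detection p under 0.05, the mean of all detected probes, a fold of 2, no intensity trend and leaving out each array.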

Additional observations from a re-analysis of the deposited data

How the results depend on the processing

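Each log2 difference of a measured member was recomputed under 5 alternatives, and 730 of 730 values moved by less than the robust spread of all genes in their comparison. That spread was 0.39, 0.33 and 0.42 at 2, 4 and 6 h against 0 h, and 0.22 for 6 h minus 2 h. It is as large as many member differences, so a small value can change sign within it. Part of the 730 values could not move. A detection p under 0.05 keeps the same normalized signals, and the mean of detected probes leaves the 31 members with 1 detected probe unchanged. With the mean of detected probes at 2 h, GABARAPL2 went from 0.15 to -0.12 and ATG10 from -0.08 to 0.15. Counts near 1.5-fold did move. With median scaling 0 members were at least 1.5-fold lower at 2 h and 0 at 6 h, and the member medians against 0 h became 0.10, 0.16 and 0.28 at 2, 4 and 6 h, while the medians of all genes became 0.05, 0.15 and 0.08. With the authors' values, and with an offset of 50, 0 members were lower at 2 h. At a fold of 2, 0 members were higher and 0 lower at 2 h, and 1 was higher at 4 h. At 6 h, 2 were higher and 0 lower, and 0 were higher for 6 h minus 2 h. Of all genes, 1.35% were higher and 1.29% lower at 2 h, and 0.217% and 0.423% at 4 h. These shares were 1.77% and 1.93% at 6 h, and 0.152% and 0.141% for 6 h minus 2 h. TP53INP1 fell below 1.5-fold at 6 h with the authors' values, the offset of 50 and the mean of its probes, where 6 members were higher. For the linear trend, median scaling called 1 rising member, WDR81. Fits to 3 of the 4 arrays have a single residual degree of freedom. The members called in them ranged from 0 to 9 rising and from 0 to 1 falling, with the highest counts without the 2 h array, where 2452 of 9771 genes passed, and 1 rising, WDR81, without the 4 h array. The cause of these differences was not tested. No paired analysis was possible because each time point has 1 array. Probes near background, such as those of AMBRA1 and ATG13, limit what can be said of low genes.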
